A study of Mus musculus with 6 samples.

Results

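The genes described here are the protein-coding genes of mouse chromosome 16 that were well counted in Oct6 KO and WT EpiLCs, and the question is how far each of them lay from the ratio that the chromosome as a whole showed between the genotypes. EpiLCs are formative pluripotent cells obtained from naïve mouse ES cells. A gene was a member when GENCODE places it on chromosome 16 of GRCm39 as protein coding and when it had at least 10 counts in each of the 6 libraries. Dppa2, Dppa4, Cldn5, Snai2, Hes1 and Igf2bp2 were left out by name. Of 661 protein-coding genes on the chromosome, 120 had no count in any library, 166 had counts but fell under the minimum in at least 1 library, and 375 reached it. Of the 6 genes left out by name 5 had reached the minimum, Snai2 had not, and 370 members remained among 55416 genes in the table. RNA-seq had been performed on 3 libraries of WT cells, the 46C ES cell line that carries a GFP reporter of Sox1, and 3 of Oct6 KO cells, a clone of 46C in which CRISPR/Cas9 had left the same small insertion on both alleles of Oct6, the gene listed as Pou3f1. Both genotypes were collected after 48 h on fibronectin in N2B27 medium with 1% KSR, bFGF and Activin A. The KO group is 1 clone, so that a difference between the groups cannot be told apart from a difference between this clone and its parent.

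The chromosome was chosen because its genes differed between these same libraries. The KO to WT values of the members, and the calls made for them in the fit of all genes, are therefore a description, and no test is made of the members as a group or of their distances from the median. Library totals ran from 10995505 to 14680930 counts. Pou3f1 was at 161, 143 and 122 CPM in the WT libraries and at 127, 141 and 128 CPM in the KO libraries, and a small insertion need not change the amount of RNA, so that these counts do not check the genotype. Markers of the formative state were present in both groups, with Fgf5 at 69.5 ± 11.03 CPM in WT and 109 ± 5.07 CPM in KO and Dnmt3b at 1563 ± 126 and 1369 ± 105 CPM (SD, n = 3 libraries). The summed level of 5 naïve markers ran from 170 to 176 CPM in WT and from 233 to 301 CPM in KO, with Esrrb and Zfp42 called higher, which here means an adjusted p below 0.1 in edgeR's fit of all genes. Of 6 formative markers Fgf5 and Otx2 (83.4 ± 22.2 and 157 ± 13.2 CPM) were called higher too. Of 4 pluripotent markers Sox2 and Nanog were called higher, and in neither list was a marker called lower. Of 4 primitive endoderm markers, summed at 4.06 to 4.78 CPM in WT and 4.63 to 12.6 CPM in KO, Gata6 (1.39 ± 0.33 and 3.51 ± 1.48 CPM) and Pdgfra (1.74 ± 0.80 and 3.43 ± 1.45 CPM) were called higher, and Gata4 was under 1 CPM in every library. Of 4 fibroblast markers, summed at 10.2 to 19.8 and 6.54 to 12.2 CPM, Thy1 was called lower and Col1a1 was under 1 CPM in every library, while Dcn was at 7.98 ± 3.61 and 5.396 ± 2.43 CPM. Of 3 neural markers, summed at 7.64 to 8.43 and 8.50 to 9.56 CPM, Neurod1 (3.79 ± 0.14 and 7.35 ± 1.21 CPM) was called higher, Sox1 (3.66 ± 0.40 and 1.06 ± 1.02 CPM) was called lower and Pax6 was under 1 CPM in every library. The part of these cell types in the members' ratios was not tested.

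Background on gene dosage helps in reading the values. When a cell carries an extra copy of a chromosome, the RNA of most of its genes rises roughly with the number of copies, and a gene whose RNA rises less is called buffered or compensated. Proteins that work in multi-subunit complexes are often adjusted further, after translation. Mouse chromosome 16 shares a long stretch of genes with human chromosome 21, the chromosome that is triplicated in Down syndrome, and another with human 22q11, which is deleted in DiGeorge syndrome. DNA copy number was not measured in these libraries, and whether copy number had a part in the ratios below was not tested. The value of log2(3/2), 0.58, is printed only as a yardstick.

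To show the sequence at the start of the genes on which the description turns, 300 bases of promoter, from 250 before to 50 after the 5′ end of the canonical GENCODE transcript, were read from GRCm39. They are printed in the direction of transcription, with every CG dinucleotide in capitals, for the pair of members farthest above the median with at least 5 CPM (Rpl39l and Senp7), for Morc1, the member with the most counts among the 10 named farthest above, for Ildr1 and Dgcr6, which lay farthest below among the named members of the low and of the middle tercile of level, and for Cct8, the member with the most counts of all.
Rpl39l, chr16:9987831-9988130, plus strand: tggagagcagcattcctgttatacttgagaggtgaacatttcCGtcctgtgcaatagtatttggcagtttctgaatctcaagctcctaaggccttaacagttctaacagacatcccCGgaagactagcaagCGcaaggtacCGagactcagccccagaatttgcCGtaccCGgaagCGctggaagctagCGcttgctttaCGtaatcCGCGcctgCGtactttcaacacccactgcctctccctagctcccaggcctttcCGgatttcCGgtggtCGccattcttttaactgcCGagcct
Senp7, chr16:55895488-55895787, plus strand: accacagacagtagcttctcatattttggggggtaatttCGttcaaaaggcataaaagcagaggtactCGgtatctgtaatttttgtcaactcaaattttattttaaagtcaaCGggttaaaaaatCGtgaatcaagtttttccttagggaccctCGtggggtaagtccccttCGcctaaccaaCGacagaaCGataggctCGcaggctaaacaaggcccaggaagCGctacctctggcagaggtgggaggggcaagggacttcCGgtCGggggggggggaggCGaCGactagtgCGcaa
Morc1, chr16:48251350-48251649, plus strand: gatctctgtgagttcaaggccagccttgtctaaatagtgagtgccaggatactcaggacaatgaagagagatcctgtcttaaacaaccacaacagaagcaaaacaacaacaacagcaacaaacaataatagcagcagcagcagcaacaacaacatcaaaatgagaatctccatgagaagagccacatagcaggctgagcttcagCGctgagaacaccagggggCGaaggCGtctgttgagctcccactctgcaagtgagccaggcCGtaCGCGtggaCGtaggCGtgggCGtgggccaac
Ildr1, chr16:36514090-36514389, plus strand: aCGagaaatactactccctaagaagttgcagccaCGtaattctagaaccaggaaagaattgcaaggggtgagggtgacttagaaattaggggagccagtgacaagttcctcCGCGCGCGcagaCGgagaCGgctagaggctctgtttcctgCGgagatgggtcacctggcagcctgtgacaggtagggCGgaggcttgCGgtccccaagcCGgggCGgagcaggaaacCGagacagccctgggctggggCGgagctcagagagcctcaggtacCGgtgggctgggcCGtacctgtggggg
Dgcr6, chr16:17884062-17884361, plus strand: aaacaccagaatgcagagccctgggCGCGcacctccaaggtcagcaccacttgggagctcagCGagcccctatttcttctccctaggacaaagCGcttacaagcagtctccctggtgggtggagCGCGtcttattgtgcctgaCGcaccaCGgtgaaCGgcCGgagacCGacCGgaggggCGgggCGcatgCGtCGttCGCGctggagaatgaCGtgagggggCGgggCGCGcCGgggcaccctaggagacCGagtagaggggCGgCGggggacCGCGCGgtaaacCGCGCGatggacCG
Cct8, chr16:87292752-87293051, minus strand: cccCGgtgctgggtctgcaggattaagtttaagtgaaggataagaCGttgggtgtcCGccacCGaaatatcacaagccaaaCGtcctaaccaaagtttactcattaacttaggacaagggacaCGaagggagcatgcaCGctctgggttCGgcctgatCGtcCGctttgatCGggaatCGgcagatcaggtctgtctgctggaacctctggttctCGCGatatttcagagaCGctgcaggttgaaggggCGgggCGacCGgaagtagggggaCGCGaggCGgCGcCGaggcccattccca

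CG dinucleotides numbered 16 in the Rpl39l promoter, 15 in Senp7, 9 in Morc1, 17 in Ildr1, 33 in Dgcr6 and 23 in Cct8. The observed to expected CG ratio was 0.80, 0.83, 0.46, 0.64, 0.99 and 0.97 in the same order. A ratio under 0.6 was found in 117 of 370 member promoters (31.6%) and in 34.0% of 11158 promoters of comparable genes on 18 other chromosomes, those other than 6, 16 and Y. The members with a ratio under 0.6 had a median log2 fold change of 0.56 and the other 253 members one of 0.58. Promoters poor in CG and promoters rich in it thus lay at nearly the same median. The median absolute deviation was 0.19 in the first and 0.15 in the second. On the other chromosomes it was 0.25 and 0.16 in the same order, so that the wider spread was present there too. The octamer ATGCAAAT, the letters bound by POU factors, was searched on both strands (ATTTGCAT on the other), and it was found in 5 member promoters (1.35%) and in 1.53% of those on the other chromosomes. It stood in 1 of the 22 members at least 0.5 above the median, A630089N07Rik, and in 0 of the 22 at least 0.5 below. These are matches of letters within 300 bases and say nothing of binding.

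The median log2 fold change of the 370 members, KO over WT, was 0.57, a ratio of 1.49, against 0.0014 for all 15746 genes tested. The quartiles were 0.42 and 0.72. In the 3 pairs of libraries that share a replicate number the members' median was 0.60, 0.58 and 0.56, so that the chromosome's value differed little between pairs (SD 0.020). The median differed from the yardstick of log2(3/2) by −0.011. It was 0.55 with library totals alone and 0.56 without the second WT library, so that this difference depended on the setting. Members took 2.57%, 2.54% and 2.63% of all counts in the WT libraries and 3.96%, 3.88% and 3.90% in the KO libraries. Their share was thus 1.52 times as large in KO, and the groups did not overlap. In RNA from whole cultures, more RNA of a gene in every cell and more cells that express it cannot be told apart.

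By this rule of edgeR's quasi-likelihood test, an adjusted p below 0.1, 282 members (76.2%) were higher in KO, where 11.8% of all genes tested were, and 1 member was lower, where 12.5% of all genes were. The remaining 87 were not called. A call with a log2 fold change of at least 1 was made for 31 members (8.38%, against 2.92% of all genes). Every KO library lay above every WT library in 292 members (78.9%, against 16.6% of all genes), every KO library lay below in 2 (17.1% of all genes), and the libraries overlapped in 76. All 3 pairs were higher in KO in 317 members (85.7%, against 25.9%). These counts restate the contrast by which the chromosome was chosen and are printed beside their backgrounds for that reason only.

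**Figure D1:**
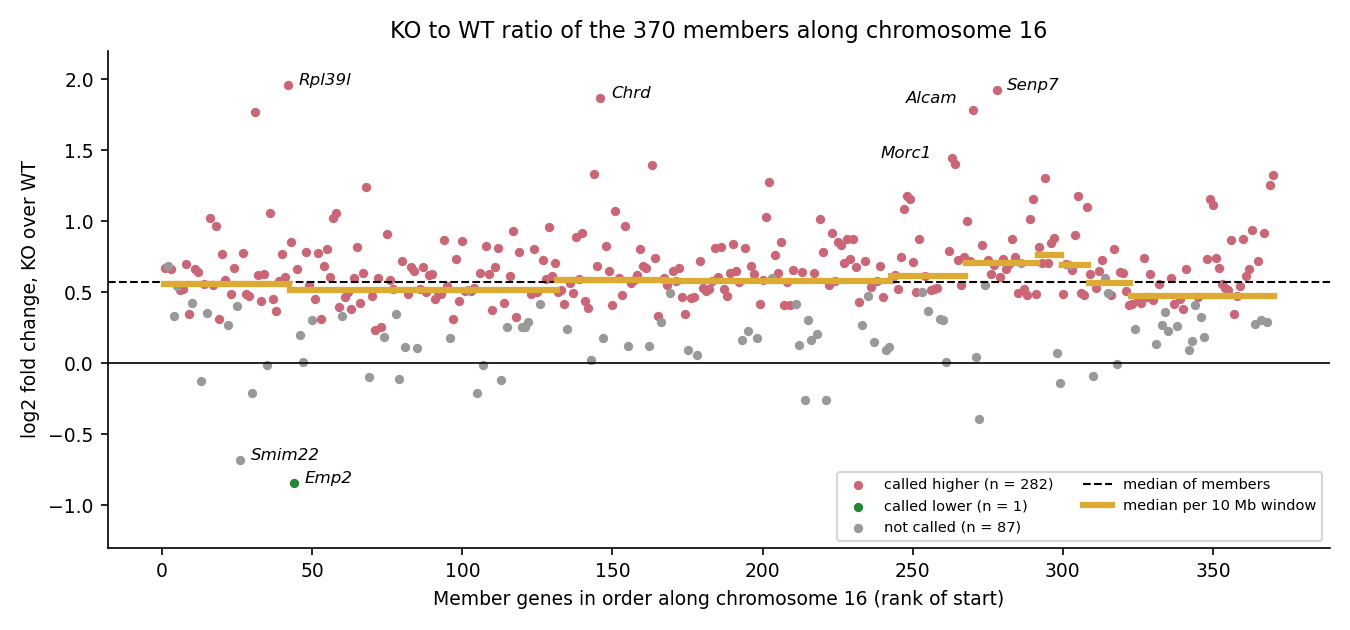
Log2 fold change of each member, KO over WT, against its rank in order along the chromosome, coloured by call, with the median of the 370 members (dashed) and the median of each 10 Mb window (thick lines). Most points lie between 0.25 and 1, the window medians run from 0.47 to 0.76, and single genes such as Rpl39l and Emp2 stand far from their neighbours.

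Members were spread around their median about as genes of other chromosomes were around theirs. Within 0.25 of the median lay 242 members (65.4%), and 61.2% of genes on the other chromosomes lay that close to their own chromosome's median. At least 0.5 above it were 22 members (5.95%, against 7.17% elsewhere), and at least 0.5 below it another 22 (5.95%, against 9.20% elsewhere). The median absolute deviation was 0.157 on chromosome 16 and from 0.164 to 0.217 on the 18 others. Among the 245 members with a mean of at least 20 CPM it was 0.127, where the others ran from 0.121 to 0.177. The SD was 0.34, against 0.33 to 0.47. No test of these differences was made.

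**Figure D2:**
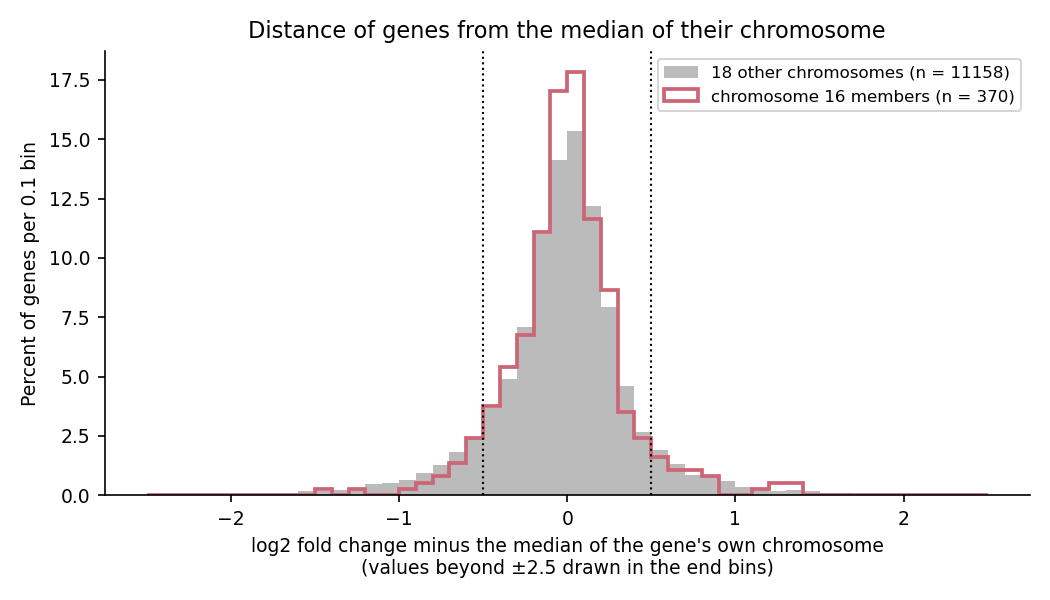
Percent of genes per bin of 0.1 against the distance of the log2 fold change from the median of the gene's own chromosome, for the 370 members (line) and for 11158 protein-coding genes with the same count minimum on 18 other chromosomes (grey). Both distributions centre on 0 and have similar width, and the dotted lines mark the distance of 0.5 beyond which 22 members lie on each side.

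Distances from the median recurred between pairs of libraries as they did elsewhere. The distance had the same sign in all 3 pairs, each about its own median, in 194 members (52.4%), 100 above and 94 below, against 52.5% on the other chromosomes. All 22 members at least 0.5 above and all 22 at least 0.5 below were on the same side in each pair, although the pairs enter the fold change that chose them. More than 2 standard errors separated 111 members from the median (30.0%, against 31.2% elsewhere). Across members, which are not independent replicates, the distances in 2 pairs had correlations of 0.69, 0.55 and 0.59, and on the other chromosomes the same correlations ran from 0.51 to 0.74.

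Rpl39l, a paralogue of the ribosomal protein gene Rpl39 with its main expression in testis, was farthest above the median. It was at 17.99, 22.7 and 22.3 CPM in the WT libraries and at 74.7, 74.5 and 95.3 CPM in the KO libraries. The groups were far apart, with a log2 fold change of 1.96 (SE 0.13) against the median of 0.57. Senp7, a protease that removes SUMO chains, followed with 4.70, 3.65 and 4.33 CPM in WT and 18.6, 13.4 and 16.5 CPM in KO. Its log2 fold change was 1.92 (SE 0.19), and the groups did not overlap.

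Chrd encodes Chordin, a secreted antagonist of BMP signalling, and was at 3.51, 5.11 and 3.65 CPM in WT and 14.7, 13.3 and 16.5 CPM in KO. Its log2 fold change was 1.87 (SE 0.20). Clcn2, a chloride channel gene close by on the other strand, rose from 22.8, 17.7 and 18.4 CPM to 50.1, 48.1 and 50.2 CPM with a log2 fold change of 1.33 (SE 0.12). Of the 31-base words in their canonical transcripts, 18.1% of those of Chrd and 13.9% of those of Clcn2 also occur in transcripts of other counted genes, and whether counting used the strand is not given in the sources used here, so that reads of overlapping genes may not be told apart. Alcam, an adhesion molecule of the immunoglobulin family, was at 5.07, 2.01 and 3.59 CPM in WT and 14.3, 10.7 and 12.4 CPM in KO. Its log2 fold change was 1.79 (SE 0.25), and the groups did not overlap.

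Morc1, a gene of the germ line that silences transposable elements, had the most counts of this group, and per length of transcript its level of 60.1 RPKM was next to the 62.4 RPKM of Rpl39l. It was at 121, 137 and 137 CPM in WT and 351, 348 and 375 CPM in KO. Its log2 fold change was 1.45 with a small error (SE 0.097). Dzip3, a RING-type ubiquitin ligase whose gene lies close to Morc1 on the other strand, was at 91.0, 63.6 and 110 CPM in WT and 245, 221 and 237 CPM in KO. The WT libraries of Dzip3 differed among themselves more than the KO libraries did, and its log2 fold change was 1.40 (SE 0.14).

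The 10 members named on the high side also included Pros1, Slc12a8 and A630089N07Rik. Pros1, the anticoagulant protein S, was at 10.97, 7.76 and 9.67 CPM in WT and 28.8, 16.4 and 25.2 CPM in KO, a log2 fold change of 1.30 (SE 0.19). Slc12a8, a solute carrier, was at 10.7, 13.1 and 10.96 CPM and at 24.95, 24.5 and 34.4 CPM, a log2 fold change of 1.28 (SE 0.16). A630089N07Rik was at 6.49, 1.55 and 5.07 CPM and at 15.4, 8.33 and 9.85 CPM, a log2 fold change of 1.32 (SE 0.32), and it shares 26.5% of its 31-base words with other counted genes. All 10 were called higher, as 76.2% of all members were, and in none of them did the libraries of the groups overlap. They were chosen by their ratios in these same libraries.

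On the low side the 10 named members, chosen for low ratios in these same libraries, had KO levels that overlapped the WT levels. None was called, and a call compares KO with WT and not with the chromosome's median. Ildr1, a component of tricellular junctions, was at 16.3, 15.4 and 10.6 CPM in WT and at 11.3, 12.96 and 10.98 CPM in KO. The log2 fold change was −0.26 (SE 0.18), the lowest among members with at least 5 CPM. Parp14, an ADP-ribosyltransferase, was at 12.3, 11.3 and 18.3 CPM and at 12.4, 11.5 and 11.4 CPM. Its log2 fold change was −0.26 (SE 0.18), with log2 ratios of 0.0094, 0.022 and −0.68 in the 3 pairs. Ppl, the plakin family protein periplakin, was at 11.5, 8.85 and 11.8 CPM and at 8.75, 6.25 and 12.8 CPM, a log2 fold change of −0.21 (SE 0.22).

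Transcription factors were among these members too. Glis2, a zinc finger factor, was at 21.6, 14.7 and 14.1 CPM in WT and 16.1, 12.9 and 17.4 CPM in KO, a log2 fold change of −0.12 (SE 0.18). Cebpd, a leucine zipper factor, was at 12.2, 9.86 and 8.05 CPM and at 6.32, 10.3 and 11.1 CPM, a log2 fold change of −0.11 (SE 0.21). In both genes single libraries differed more than the groups did. Dgcr6, a gene of the DiGeorge region, was tighter, with 17.0, 18.7 and 18.2 CPM in WT and 17.5, 17.8 and 14.4 CPM in KO, a log2 fold change of −0.12 (SE 0.14). The distance of Dgcr6 from the chromosome's median was −0.69.

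Bmerb1, Mettl22, Rwdd2b and Ahcyl completed the group, with log2 fold changes of −0.096 (SE 0.14), −0.013 (SE 0.17), −0.0030 (SE 0.19) and 0.0098 (SE 0.12). Ahcyl was the exception among them in its level, 95.6 RPKM, and was at 176, 245 and 178 CPM in WT and 205, 199 and 198 CPM in KO. Of its 31-base words 93.2% also occur in Ahcy, the gene of S-adenosylhomocysteine hydrolase on chromosome 2. Ahcy was at 150, 191 and 153 CPM in WT and 173, 169 and 151 CPM in KO, a log2 fold change of −0.0014 (SE 0.11). How many of the reads of Ahcyl stem from Ahcy was not tested.

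**Figure D3:**
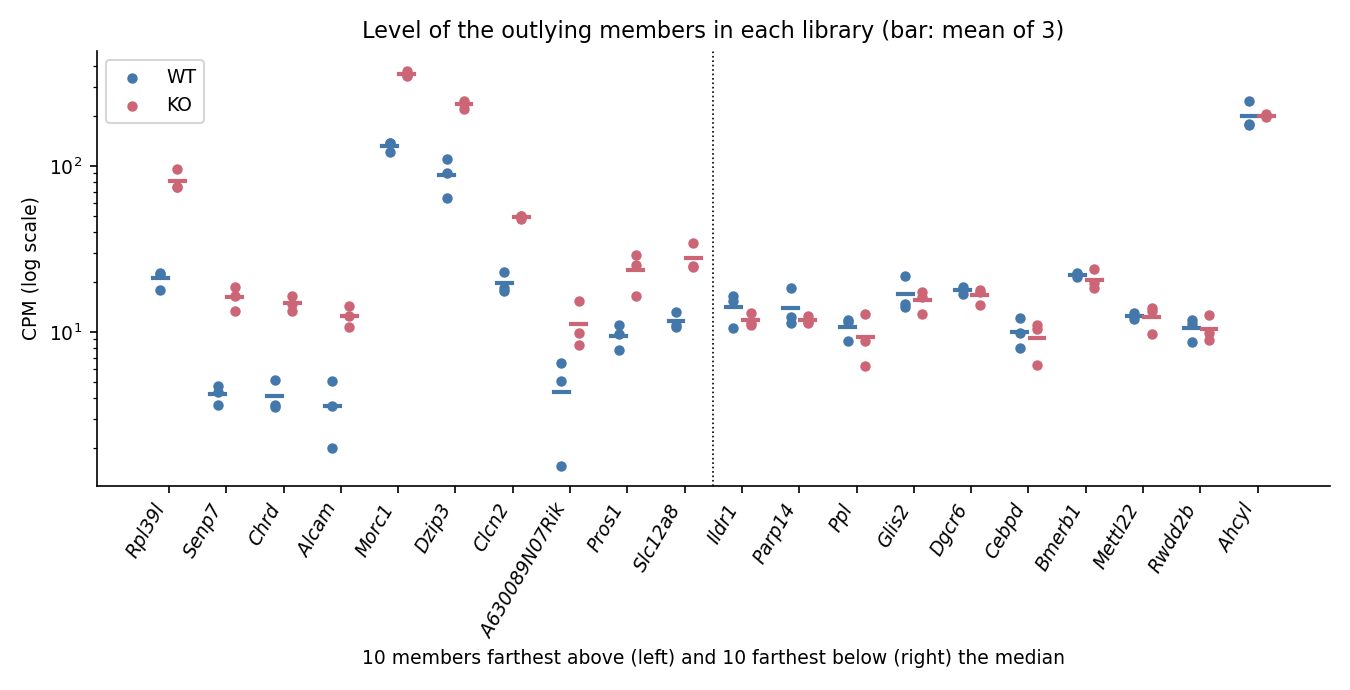
CPM (log scale) in each WT and KO library of the 10 members named farthest above the median (left of the dotted line) and of the 10 named farthest below (right), with a bar at the mean of 3 libraries. On the left the KO points stand clear of the WT points in every gene, and on the right they overlap in every gene. The genes were chosen by their ratios in these libraries, so that this contrast largely follows from the choice.

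Several members still lower were under the 5 CPM that the naming rule asked for, and they are given here as chosen after their values were seen. Emp2, an epithelial membrane protein of the tetraspan kind, had the lowest ratio of the chromosome and was the 1 member called lower. It was at 2.69, 2.74 and 3.11 CPM in WT and 1.94, 1.16 and 1.65 CPM in KO, a log2 fold change of −0.84 (SE 0.32). The call was lost without the filter on low counts, with DESeq2, and on leaving out the first or the second WT library, or the second or the third KO library. Smim22, at 2.61, 1.83 and 2.03 CPM in WT and 1.30, 1.08 and 1.65 CPM in KO, was the other member in which every KO library was below every WT library, and its log2 fold change was −0.68 (SE 0.35).

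Genes close to the count minimum gave values from all parts of the distribution. Arhgap31 and Rbm11, with a lowest count of 10, were just inside, at log2 fold changes of 0.094 (SE 0.42) and 0.69 (SE 0.43). Just outside, with a lowest count of 9, were Cd96 at 1.47 (SE 0.41), Cfap44 at 0.62 (SE 0.42) and Gsc2 at 0.27 (SE 0.44). In all, 24 protein-coding genes of the chromosome were under the minimum but could be fitted, these 3 included, with a median of 0.66 and 18 above 0. The 15 lncRNA genes of the chromosome with the same minimum had a median of 0.25, and 10 of them were above 0.

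Members were then ordered by level, per kilobase of canonical transcript (RPKM, averaged over the 6 libraries), and divided in terciles. The median log2 fold change was 0.50 in the low tercile (0.12 to 4.97 RPKM, 123 members), 0.52 in the middle tercile and 0.64 in the high tercile (17.5 to 792 RPKM, 124 members). The spread narrowed with level, the median absolute deviation being 0.26, 0.14 and 0.11. Genes of the other chromosomes in the same ranges had median distances from their chromosome's median of −0.053, 2.2e-06 and 0.027, and deviations of 0.31, 0.17 and 0.12. The step in the median from the low to the high tercile was thus present elsewhere too, at a smaller size. Standard errors fell in the same direction, with a median of 0.21, 0.12 and 0.10 for the members.

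Called higher were 58 of 123 members in the low tercile, 102 of 123 in the middle tercile and 122 of 124 in the high tercile. Over all genes tested the share was 11.8%, and it was not computed by level. Standard errors fell over the same terciles, so that these counts do not separate level from precision. Spearman's rho between level and distance was 0.21 over the 370 members and 0.087 over 11158 genes elsewhere. The level holds the KO libraries, which themselves enter the ratio, and with the WT level alone rho was 0.14 and 0.013. A positive relation of this kind was also larger on chromosome 16 than elsewhere by that measure, and no test was made. Transcript length showed a rho of −0.0052 with the distance, and the genomic span of the gene one of 0.075.

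Ratios under 0.25 on the log2 scale, which leave KO within 0.25 of WT or below it, were found in 48 members, 16 of them below 0. The low tercile held 34 of these, the middle tercile 11 and the high tercile 3. At least 0.5 below the median lay 17 of 123, 4 of 123 and 1 of 124 members in the same order. Elsewhere 17.0%, 6.23% and 2.59% of genes in these ranges lay that far below their chromosome's median. The 3 members under 0.25 in the high tercile, named after their values were seen, were Ahcyl, Pkp2 and Nde1. Pkp2, a desmosomal plakophilin, had a log2 fold change of 0.12 (SE 0.096) at 41.9 RPKM. Nde1, a centrosomal protein of the dynein pathway, was at 136, 133 and 129 CPM in WT and 159, 159 and 150 CPM in KO, and its log2 fold change of 0.23 (SE 0.092) was called and nearly the same in each pair, at 0.22, 0.26 and 0.22.

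**Figure D4:**
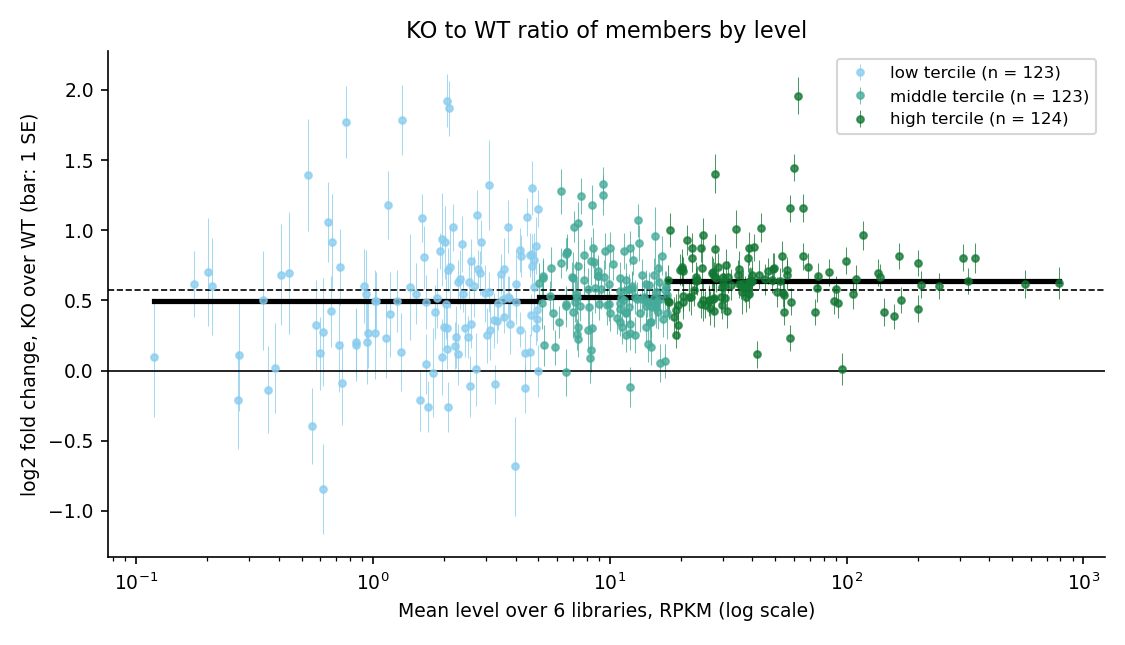
Log2 fold change of each member (point, with 1 SE) against its mean level in RPKM on a log axis, coloured by tercile, with the median of each tercile (solid black) and of all members (dashed). The points narrow from left to right, and the solid lines step from 0.50 to 0.52 and 0.64.

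The 10 members with the most counts all rose, and all lay within 0.25 of the median. Cct8, a subunit of the chaperonin that folds actin and tubulin, was at 878, 877 and 911 CPM in WT and 1450, 1420 and 1278 CPM in KO, a log2 fold change of 0.64 (SE 0.093). Hmgn1, a nucleosome binding protein, had 0.62 (SE 0.10) and Gart, an enzyme of purine synthesis, 0.60 (SE 0.093). Tomm70a, a receptor for import into mitochondria, had 0.67 (SE 0.093). Values somewhat higher were seen for Usp7, a deubiquitinase, at 0.77 (SE 0.090), for the translation factor Eif4a2 at 0.80 (SE 0.097), for the nucleolar protein Rsl1d1 at 0.80 (SE 0.11) and for Rrn3, a factor of RNA polymerase I, at 0.82 (SE 0.092).

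Eif4g1, the scaffold of the cap-binding complex, was the lowest of these 10. It was at 890, 874 and 887 CPM in WT and at 1184, 1109 and 1174 CPM in KO, with little spread and a log2 fold change of 0.39 (SE 0.090). Psmd2, a subunit of the proteasome's regulatory particle next to it on the chromosome, was at 519, 536 and 485 CPM and at 752, 691 and 648 CPM, a log2 fold change of 0.44 (SE 0.096). Psmd2 shares 40.9% of its 31-base words with other counted genes and Eif4a2 31.4%. The members that lay closest to the median with at least 50 CPM were Tnk2, a kinase, at 0.57 (SE 0.14), Hacd2, of fatty acid elongation, at 0.58 (SE 0.12), Carhsp1 at 0.58 (SE 0.094), Mcm4, a subunit of the replicative helicase, at 0.58 (SE 0.092), and Ap2m1, a subunit of the clathrin adaptor, at 0.56 (SE 0.11), which shares 57.8% of its 31-base words.

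Along the chromosome the median was above 0 in each of the 10 windows of 10 Mb. It was 0.56 in the first window (42 members), 0.52 from 10 to 20 Mb (89 members), 0.59 from 20 to 30 Mb (36), 0.58 from 30 to 40 Mb (75) and 0.62 from 40 to 50 Mb (25). It then stood at 0.70 from 50 to 60 Mb (24), 0.76 from 60 to 70 Mb (8) and 0.69 from 70 to 80 Mb (9), and at 0.57 from 80 to 90 Mb (14) and 0.47 from 90 to 100 Mb (48). The higher windows hold few members. In the last window the 3 pairs gave 0.52, 0.53 and 0.54, and from 50 to 60 Mb they gave 0.73, 0.77 and 0.66. In each pair the second value was the higher one, although the windows were picked by their medians and the pairs enter those medians. The last window was not the lowest in every pair. In the first pair the window from 10 to 20 Mb was lower, at 0.48, and in the third the window from 80 to 90 Mb, at 0.49.

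Spearman's rho between each member and the next along the chromosome was 0.076 over 369 adjacent pairs, and on the 18 other chromosomes it ran from 0.091 to 0.26 with a median of 0.18. Between each member and the next but one it was 0.078, within the range of 0.033 to 0.25 on the other chromosomes. Such pairs share members with each other, so that no test is given. Clcn2 and Chrd, both far above the median, enclose Polr2h, a subunit shared by the RNA polymerases, which had 0.68 (SE 0.10). Morc1 and Dzip3 are adjacent members, and A630089N07Rik stood beside B230307C23Rik, which rose with a log2 fold change of 1.25 (SE 0.15) and shares 27.9% of its 31-base words with other counted genes.

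Members were grouped in 15 lists by function or by synteny, written with earlier results of these data known, and the median of each list is set beside the 0.57 of all members. The counts called higher in each list stand beside 282 of all 370 members (76.2%) and 11.8% of all genes tested. Genes can stand in several lists, and the ends of a list are named among members with at least 5 CPM. Among 64 orthologues of genes on human chromosome 21 the median was 0.51, with 26 above and 38 below the chromosome's median and 46 called higher. Usp25, a deubiquitinase, had the highest value at 1.18 (SE 0.14) and Rwdd2b the lowest. The gene of the kinase DYRK1A, named here for its known dosage sensitivity and after its value was seen, had 0.34 (SE 0.095), with 70.1, 67.1 and 70.3 CPM in WT and 89.2, 86.3 and 87.9 CPM in KO. Orthologues of human 22q11 gave 0.52 over 35 members (15 above, 20 below, 29 called higher), from Dgcr6 to Trmt2a, a tRNA methyltransferase, at 0.93 (SE 0.10), of whose 31-base words 53.7% occur in other counted genes.

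Lists of expression machinery and of mitochondrial proteins lay slightly above. The median level was 29.1 RPKM in RNA processing and translation and 25.7 RPKM in mitochondrial proteins, against 10.998 RPKM over all members. For transcription factors and chromatin regulators it was 10.5 RPKM. The part of level in these medians was not tested. In RNA processing and translation the median was 0.63 over 30 members (19 above, 11 below, 27 called higher), from Scaf4 at 0.24 (SE 0.15) to Rpl39l, and apart from Rpl39l no value of the list exceeded the 0.93 of Trmt2a. Scaf4 shares 47.9% of its 31-base words with other counted genes. Transcription factors and chromatin regulators gave 0.63 over 36 members (21 above, 15 below, 29 called higher), with a wider spread (median absolute deviation 0.22, against 0.11 in the previous list) and with Glis2 and Morc1 at the ends. Mitochondrial proteins gave 0.61 over 28 members (16 above, 12 below, 25 called higher). Their range went from the ribosomal protein gene Mrps6 at 0.091 (SE 0.18), which shares 51.0% of its 31-base words with other counted genes, to Mpv17l at 1.24 (SE 0.13).

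Subunits of multi-protein complexes, whose amounts are matched to each other in the cell, had a median of 0.62 over 46 members (27 above, 19 below, 42 called higher). Chmp2b, of the ESCRT-III complex, was their lowest at 29.8, 33.9 and 31.6 CPM in WT and 30.9, 32.9 and 36.0 CPM in KO, a log2 fold change of 0.069 (SE 0.12). Atp6v1a, of the proton pump of lysosomes, was their highest at 157, 154 and 182 CPM in WT and 378, 354 and 368 CPM in KO, a log2 fold change of 1.16 (SE 0.098). Both also bounded the list of membrane traffic and glycosylation, with a median of 0.61 over 30 members (18 above, 12 below, 26 called higher). The median absolute deviation among the complex subunits was 0.11, against 0.16 over all members, and their median level was 26.9 RPKM, against 10.998 RPKM over all members. The part of level in this narrower spread was not tested.

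Protein folding gave 0.59 over 13 members (7 above, 6 below, 12 called higher), from Hmox2 at 0.31 (SE 0.12), with 57.8% of its 31-base words in other counted genes, and Txndc11, at 0.31 (SE 0.12) too, to the mitochondrial chaperone Trap1 at 0.70 (SE 0.094). Txndc11 shares 22.8% of its 31-base words. Hmox2 encodes a heme oxygenase, which is no folding factor, although the list holds it. Ubiquitin, SUMO and proteasome genes gave 0.54 over 24 members (11 above, 13 below, 22 called higher), with Lmln at 0.18 (SE 0.17) and Senp7 at the ends. Lmln encodes a metallopeptidase outside these functions, although the list holds it. DNA replication and repair gave 0.52 over 20 members (9 above, 11 below, 14 called higher), from Parp14 to Ube2v2, a ubiquitin-conjugating enzyme variant of damage tolerance, at 0.91 (SE 0.13). Cilium and centrosome genes gave 0.58 over 13 members (7 above, 6 below, 12 called higher), bounded by Nde1 and Dzip3. Dzip3, the ubiquitin ligase named above, stands in the ubiquitin list as well.

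**Figure D5:**
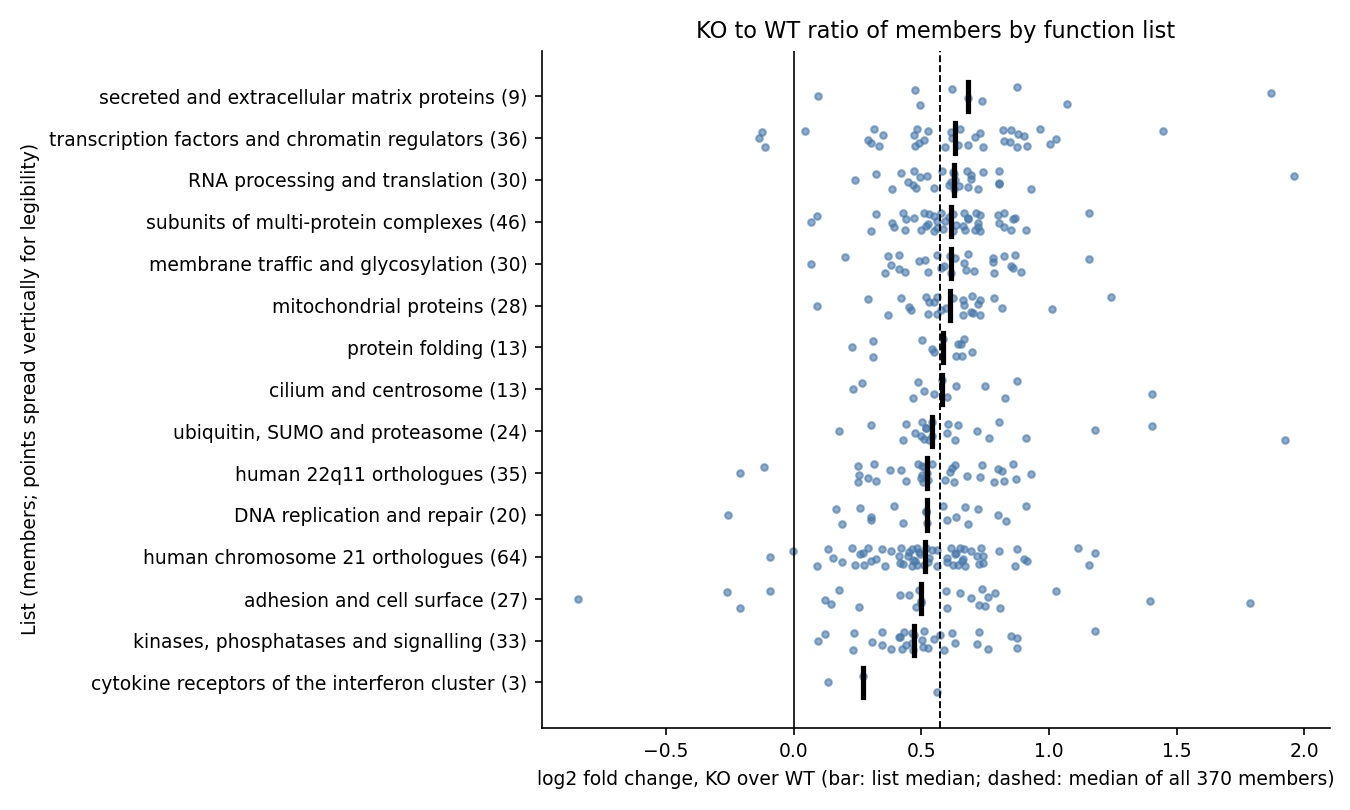
Log2 fold change of every member of each of 15 lists, with the list's median (bar), the median of all 370 members (dashed) and 0 (solid line). List medians run from 0.27 for 3 cytokine receptors to 0.68 for 9 secreted proteins, and the single points of each list overlap those of the others.

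Lists of signalling and of the cell surface lay lower or were more spread. Kinases, phosphatases and signalling genes gave 0.47 over 33 members (10 above, 23 below, 28 called higher), from Nde1 to Tbc1d23, of vesicle capture at the Golgi, at 0.87 (SE 0.10). Neither of these ends is a kinase or a phosphatase, although the list holds them. Adhesion and cell surface genes gave 0.50 over 27 members, with 13 above and 14 below, 15 called higher, 1 (Emp2) called lower and 11 not called. Their median absolute deviation was 0.25, the largest of the 15 lists, and their median level was 2.83 RPKM. Both Alcam and Ildr1 belong to this list. Secreted and matrix proteins gave 0.68 over 9 members (6 above, 3 below, 6 called higher), from the metalloprotease gene Adamts1 at 0.49 (SE 0.22) to Chrd. The cytokine receptors of the interferon cluster had 3 members, with a median of 0.27 and 1 called higher. Ifnar1 was at 57.5, 49.0 and 49.6 CPM in WT and 84.4, 72.6 and 73.5 CPM in KO, a log2 fold change of 0.56 (SE 0.11). Ifnar2 and Ifngr2, both under 6 CPM in every library, had 0.13 (SE 0.28) and 0.27 (SE 0.25).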

How the data were processed

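RNA-seq libraries were prepared from total RNA after removal of ribosomal RNA with a stranded kit. Quality control used FastQC and trimming used Fastp, after which STAR, in its two-pass mode, aligned the reads to GRCm39. The authors deposited raw counts per gene, with neither filter nor normalization. The STAR version, annotation release, use of strand and treatment of reads with several matches are not given in the sources used here. Identifiers were matched to GENCODE M39 (54749 of 55416; the other 667 held 0.0602% of counts). edgeR 4.0.16 in R 4.3.3 was fitted with TMM, filterByExpr, a model of genotype alone and p-values adjusted by Benjamini-Hochberg over 15746 genes. CPM are relative to TMM-normalized totals, and RPKM divide them by the length of the canonical transcript. The common biological coefficient of variation was 11.7%. Replicate libraries were not copies (chi-square per degree of freedom from 6.94 to 11.8). p-values set the difference of KO and WT against the spread between these libraries, which holds no spread between clones. 31-base words were compared between canonical transcripts of counted genes. No interval is given for single counts, since errors were derived from the fit. A standard error (SE) is the absolute log2 fold change divided by the square root of the F statistic of edgeR's test of KO against WT. The same errors were used for distances from the median.

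The series' design text calls the replicates paired. Over 14793 genes, deviations from group means had correlations of 0.21, 0.25 and 0.10 between libraries of the same number and from −0.20 to −0.023 between others. Such deviations cancel within a group, so that positive values for the same number make the others negative on average. By the positive values, the numbers were taken to pair libraries. Members and lists were chosen with earlier results of these data known. Named members were the 10 farthest from the median on each side (mean of at least 5 CPM, same side in all 3 pairs), the 10 with the highest mean CPM, the 5 closest to the median with at least 50 CPM, the highest and lowest of each list of 4 or more members with at least 5 CPM, and those at the count minimum. Alternatives were RLE size factors, library totals, TMM without chromosomes 6 and 16, no filter, a replicate block, DESeq2 1.42.0, each library left out, an adjusted p below 0.05, a mean of at least 50 counts, a prior count of 2 and terciles by WT level. Leaving out members with over 20% shared 31-base words was added after seeing the data, as were the settings for the level, position and list results other than WT terciles.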

Additional observations from a re-analysis of the deposited data

How the results depend on the processing

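Few values depended on the processing, the count of members far below the median among them. The members' median was 0.55 with library totals alone, where the median of all genes tested moved to −0.023, and the members' median less that of all genes was 0.57 in both. The count of members at least 0.5 below the median, 22 in the main fit, was 13 when a mean of at least 50 counts replaced the minimum in each library, a rule that admits fewer genes of low level. It was 31 without the third WT library and 29 without the third KO library. The count of members called lower was 0 without the filter on low counts, 0 with DESeq2, 0 at an adjusted p below 0.05 in edgeR and from 0 to 1 with a library left out. At an unadjusted p below 0.05 this count was 1 in edgeR, 1 without the filter and 1 with DESeq2. The difference between the highest and lowest medians of windows with 20 or more members was 0.23, and 0.14 without the members that share over 20% of their 31-base words, where the window from 50 to 60 Mb was left with 19 members and no longer entered. With a replicate block, 301 members were called higher in place of 282, 19 were gained and 0 lost, and no other call changed. The step in the median from the low to the high tercile, 0.14, ran from 0.099 to 0.21 with a library left out and was 0.11 with terciles by WT level. Over the 3 pairs of libraries this step had an SD of 0.106, not much smaller than the step itself. Of 663 values of 51 named members under the alternatives, 647 moved by less than the SD over the 3 pairs, 16 moved further and 0 changed sign where the member was called. Precision is limited by depth for members of the low tercile, with a median standard error of 0.21.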
